A study of Mus musculus with 17 samples.

Results

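Integrin and laminin subunit genes were followed in RNA from sorted mouse bone cells that carry 0, 1 or 2 copies of a Cxcr4 gain-of-function allele. The members are the 37 protein-coding genes whose symbols mark them as an integrin α or β subunit (26 genes) or as a laminin α, β or γ chain (11 genes), out of 55335 gene identifiers counted in the 17 libraries. The rule reads gene symbols and types alone and uses no measured value. Osteoprogenitor cells (OPCs, Sca-1-, CD51+, PDGFRα+/-) and skeletal stromal/stem cells (SSCs, Sca-1+, CD51+, PDGFRα+) were sorted from collagenase-digested long bones whose marrow had been flushed out. The paper's gating legend excludes CD45+, TER119+ and CD31+ cells, and its text also names Lineage, c-Kit and CD71 as negative. The 3 genotypes were WT (Cxcr4+/+), +/1013 and 1013/1013, where 1013 is a knock-in of the truncated receptor found in WHIM syndrome, an immunodeficiency in which CXCR4 resists desensitization. The methods describe littermate females of 8 to 12 weeks unless specified otherwise. Each library came from a pool of 3 mice, and each group had 3 libraries except 1013/1013 SSCs, which had 2, so the spread reported here is that between pools. The allele is in the germline of the mutant mice, so all their cells carry it.

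Integrins are αβ heterodimers that span the plasma membrane and hold cells to the matrix or to other cells. The α chain largely sets the ligand: α1, α2, α10 and α11 pair with β1 to bind collagens, α5, α8, αv and αIIb recognise the RGD motif of proteins such as fibronectin and vitronectin, and α3, α6 and α7 bind laminins. Laminins are αβγ trimers of basement membranes, the thin sheets that surround muscle fibres, Schwann cells, adipocytes and vessels. In bone, osteoblast-lineage cells attach to type I collagen, fibronectin, osteopontin and bone sialoprotein through integrins.

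The libraries held 64099849 to 92683497 gene counts in OPCs and 44217695 to 50509592 in SSCs. In the full counts, depth and cell type cannot be told apart. Members made up 0.127% to 0.249% of gene counts in OPCs and 0.220% to 0.476% in SSCs. Col1a1 and Col1a2 together took 16.1% to 38.7% of gene counts in OPCs and 0.563% to 2.78% in SSCs. Their part in the difference of member shares was not tested. Levels are given as RPKM, reads per kilobase of exons, scaled to the normalised library size, so that genes can be compared. A count of 0 allows up to 3 counts, which is 0.0324 to 0.0468 CPM (the count scaled to library size, without length) in OPC libraries and 0.0594 to 0.0678 CPM in SSC libraries, for counting error alone. The sort was visible in the RNA. Ly6a, which encodes Sca-1, lay at 0.453 to 11.8 CPM in OPCs and at 530 to 1789 CPM in SSCs, and Pdgfra at 52.2 to 115 and 363 to 608 CPM. Osteoblast markers summed to 93208 to 226600 CPM in OPCs and 2271 to 16621 CPM in SSCs, with 7 of 7 lower in SSCs. Cxcr4 RNA was found in all 17 libraries, at 3.41 to 19.7 CPM in OPCs. In SSCs it was at 67.2 CPM in WT SSC replicate 3 and at 0.136 to 1.69 CPM in the other 7 libraries, a log2 difference between the cell types of -3.04 (SE 0.82, edgeR adjusted p = 0.0110). A truncating knock-in cannot be checked from the RNA level. WT SSCs stood apart from mutant SSCs in technical measures. They had more genes with a count (21449 to 22599 against 15748 to 19227) and more reads outside genes (3.68% to 4.15% against 1.504% to 2.69%), so genotype and library preparation cannot be told apart in SSCs. The library with the fewest genes was 1013/1013 SSC replicate 1.

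Levels of single members spanned from no count to 212 RPKM, for Itgb5. Itgb1, Itgb5, Lamb2, Itga11 and Itga5 were above 10 RPKM in every library. At the other end, 8 members (Itga4, Itgad, Itgae, Itgb6, Itgb8, Lama1, Lama3 and Lamb3) stayed under 1 RPKM in every library, and 14 members had a count of 0 in at least 1 library.

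**Figure D1:**
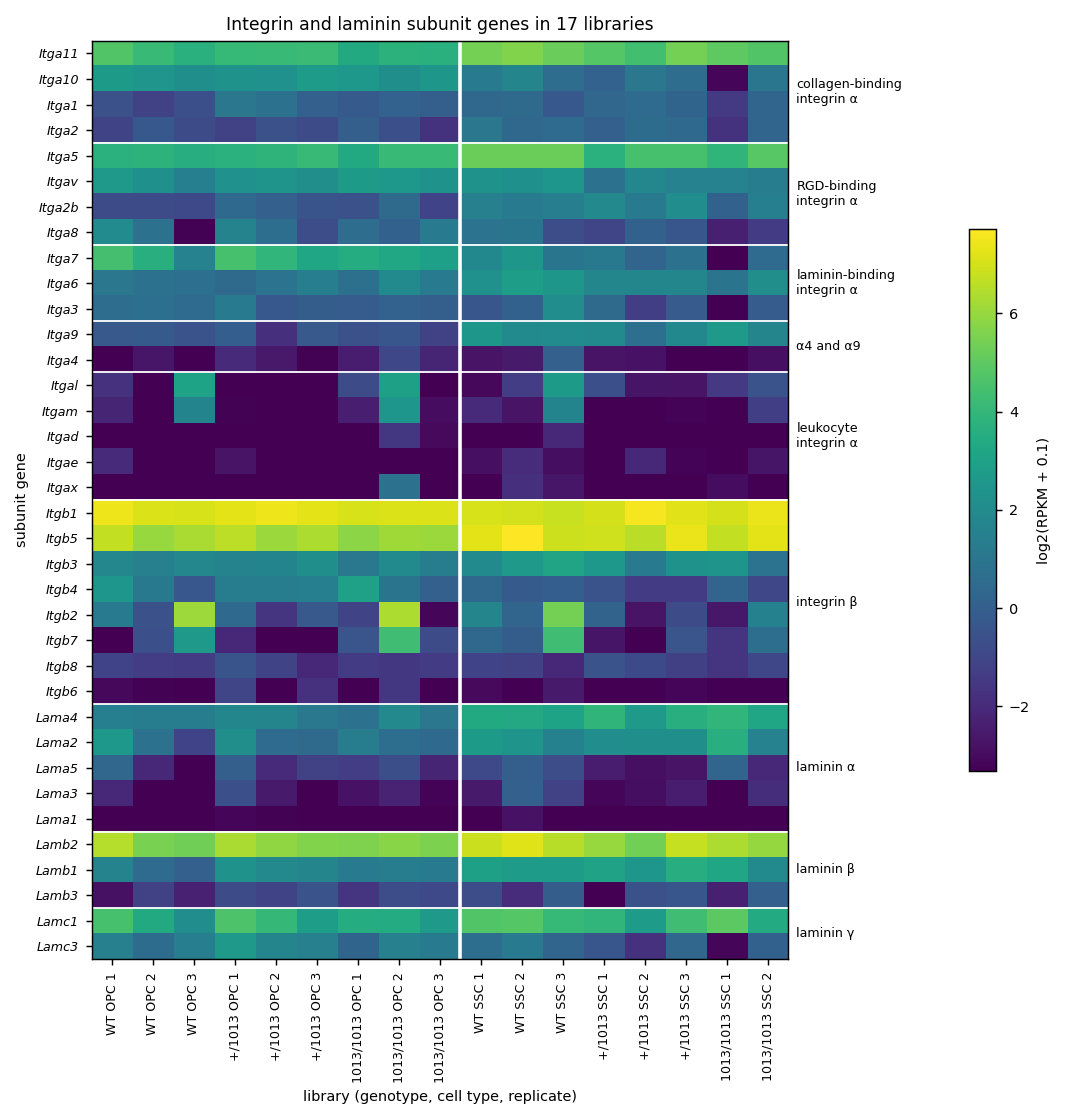
Heat map of the level of 36 of the 37 subunit genes (rows, grouped by role, in order of median level) in each of the 17 libraries (columns, OPCs left and SSCs right of the white line), as log2(RPKM + 0.1). Itgb1 and Itgb5 are bright in every column, Itga9 and Lama4 are brighter in all 8 SSC columns, and Itgb2, Itgb7, Itgal and Itgam are bright in WT OPC replicate 3, 1013/1013 OPC replicate 2 and WT SSC replicate 3.

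The first question was how SSCs differ from OPCs, averaged over the 3 genotypes. SSCs had more RNA for the laminin chains Lama4, Lamb1 and Lama2 and for the integrin chains Itga9, Itga2b, Itga11, Itga2, Itga6, Itgb5 and Itga5. SSCs had less for Itga7, Itgb4, Itga10, Lamc3 and Itgav. For Itgav the direction differed between genotypes, with a higher mean in SSCs than in OPCs within WT. In all, 16 of 37 members were called, meaning a Benjamini-Hochberg adjusted p under 0.05 in edgeR's quasi-likelihood test over all genes and at least a 1.5-fold change. The share called over all 20238 genes tested was 30.2%. By direction, 11 members were higher in SSCs, against 15.3% of all genes, and 5 were lower, against 14.9%. The median log2 difference of the 37 members was 0.53, and that of all genes was -0.04. In bulk samples, fewer cells of a type and less RNA per cell cannot be told apart. Within WT 8 members were called, all higher, where 11.4% of all genes were called, 5.55% higher and 5.86% lower. Within +/1013 4 were called, 3 higher and 1 lower, where all genes gave 12.5%, 6.44% and 6.02%. Within 1013/1013 6 were called, 5 higher and 1 lower, where all genes gave 13.1%, 6.94% and 6.12%.

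**Figure D2:**
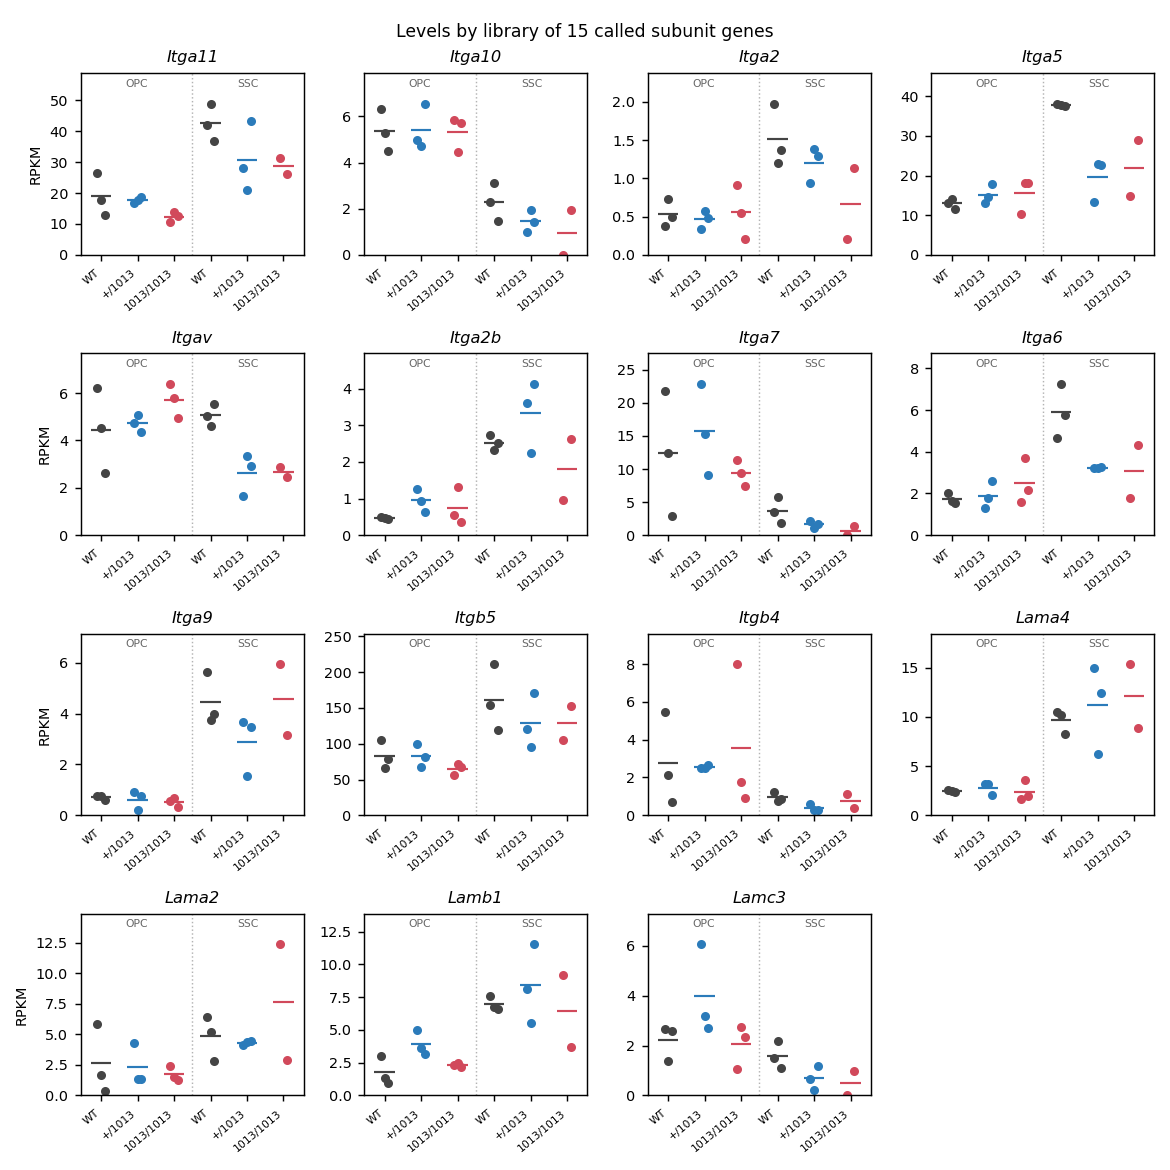
Level in RPKM (vertical axis, linear, from 0) of 15 called members in each library, by cell type and genotype. Points are libraries and bars are group means. The SSC points of Itga9 and Lama4 all lie above the OPC points, and those of Itga10 all lie below, while the other panels overlap between cell types.

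The collagen receptors split. Itga11, the α chain of the main receptor for fibrillar collagen on mesenchymal cells, was the most abundant collagen-binding chain. Its level was 26.6, 17.7 and 12.9 RPKM in the 3 WT OPC libraries, 16.6, 17.7 and 18.6 in +/1013 OPCs and 10.5, 13.8 and 12.7 in 1013/1013 OPCs. In SSCs it was 42.1, 48.9 and 36.8 RPKM in WT, 27.9, 21.1 and 43.3 in +/1013 and 31.3 and 26.2 in 1013/1013. WT OPC replicate 1 reached into the SSC range, and all other OPC libraries lay below every SSC library. The log2 difference was 1.06 (SE 0.17, edgeR adjusted p = 0.000282). Itga10, the collagen receptor chain best known from chondrocytes, went the other way. It lay at 4.46 to 6.55 RPKM in the 9 OPC libraries. In SSCs it was 2.28, 3.13 and 1.46 RPKM in WT, 0.997, 1.95 and 1.43 in +/1013, and 0.0141 and 1.93 in 1013/1013. The 2 cell types did not overlap, which 10.9% of all genes also showed, and the log2 difference was -1.86 (SE 0.54, edgeR adjusted p = 0.0168). The 0.0141 RPKM of 1013/1013 SSC replicate 1 stands for 4 counts. Without the other 1013/1013 SSC library, replicate 2, the difference was -3.86. Itga10 shares 1739 exon bases with an overlapping gene model on the same strand, Gm42957, whose reads cannot be told apart from its own. Chondrocyte markers summed to 13482 to 97756 CPM in OPCs and 4132 to 22554 CPM in SSCs, with 6 of 7 lower in SSCs and none at 0 in any library, and their part in this difference was not tested. Itga2 was low, at 0.207 to 0.916 RPKM (median 0.502) in OPCs and 0.206 to 1.98 (median 1.24) in SSCs, with overlap between the cell types. Its log2 difference was 1.04 (SE 0.36, edgeR adjusted p = 0.0402), a call that was lost in 14 of the alternatives, and without 1013/1013 SSC replicate 2 it was 0.49 (edgeR adjusted p = 0.28). Itga1 did not differ by the test (0.13, SE 0.26).

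Because Itga10 and Itga11 encode closely related α chains that moved in opposite directions, the 250 bases before their RefSeq transcription starts (GRCm38.p6, plus strand) are shown side by side. Capitals mark CG dinucleotides, the sites of vertebrate DNA methylation.
Itga10, chr3:96645334-96645583: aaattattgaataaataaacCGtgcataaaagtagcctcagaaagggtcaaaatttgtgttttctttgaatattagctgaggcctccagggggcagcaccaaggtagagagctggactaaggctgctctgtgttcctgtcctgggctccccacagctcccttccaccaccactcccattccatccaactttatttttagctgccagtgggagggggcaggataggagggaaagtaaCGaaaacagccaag
Itga11, chr9:62677605-62677854: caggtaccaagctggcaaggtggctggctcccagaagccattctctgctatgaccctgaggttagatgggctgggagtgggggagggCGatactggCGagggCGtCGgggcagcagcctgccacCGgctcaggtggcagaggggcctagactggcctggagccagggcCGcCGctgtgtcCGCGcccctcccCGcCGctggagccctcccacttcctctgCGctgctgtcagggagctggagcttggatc
The Itga10 window holds 2 CG dinucleotides and 48.0% G and C, and the Itga11 window holds 12 and 68.4%. The medians over the 32851 promoters of the RefSeq table were 6 and 52.4%. Of the 37 members, 23 had a promoter in that table, 20 of them within 1000 bases of the GENCODE start. Among those 20, the GC box GGGCGG on either strand stood in 8, of which 3 (Itga5, Itgb5 and Lamb1) were called higher in SSCs, against 32.7% of all promoters. The Runt domain motif TGTGGT stood in 1 (14.05% of all promoters), the AP-1 motif TGANTCA in 1 (6.75%) and TATAAA in none (12.4%). Neither window shown holds any of the 4, and no motif is contained in another. These matches describe letters and no measurement here bears on binding.

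Among the RGD-binding chains, Itga5, the α chain of the classical fibronectin receptor, lay at 10.4 to 18.0 RPKM (median 14.2) in OPCs. In SSCs it was 38.2, 37.7 and 37.5 RPKM in WT, 13.4, 22.9 and 22.7 in +/1013, and 14.8 and 28.9 in 1013/1013. The WT SSC libraries lay above all others, and the lowest mutant SSC libraries lay inside the OPC range. The log2 difference averaged over genotypes was 0.80 (SE 0.17, edgeR adjusted p = 0.00227). Itga2b, which encodes the platelet chain αIIb, was low in both, at 0.372 to 1.33 RPKM (median 0.562) in OPCs and 0.971 to 4.14 (median 2.57) in SSCs. It overlapped through 1013/1013 SSC replicate 1 alone, and its log2 difference was 1.83 (SE 0.29, edgeR adjusted p = 0.000318). The 5 megakaryocyte markers summed to 0.132 to 11.5 CPM in OPCs and 1.21 to 11.5 CPM in SSCs. None of the 4 that could be tested was called between the cell types, Pf4 ranged from 0 to 1.47 CPM in OPCs and from 0.494 to 3.03 CPM in SSCs, and their part in the Itga2b difference was not tested. Itgav encodes CD51, which was part of the gate of both cell types, so its presence was fixed by the sort. Its level was 2.61 to 6.40 RPKM (median 4.93) in OPCs and 1.66 to 5.55 (median 3.12) in SSCs, a log2 difference of -0.59 (SE 0.18, edgeR adjusted p = 0.0197). This lies close to the 1.5-fold threshold, and the call was lost in 13 of the alternatives. In WT, mean Itgav was 4.45 RPKM in OPCs and 5.06 in SSCs. In +/1013 it was 4.73 and 2.63, and in 1013/1013 it was 5.71 and 2.67. The direction in WT was therefore opposite to that in both mutants. Itga8, a receptor chain for nephronectin, ranged from 0.00568 to 3.96 RPKM in OPCs and from 0.0945 to 1.89 in SSCs and was not called.

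The laminin-binding α chains also divided. Itga7, the laminin receptor chain of muscle and Schwann cells, lay at 21.8, 12.5 and 2.91 RPKM in WT OPCs, 22.9, 15.3 and 9.16 in +/1013 OPCs and 11.3, 9.39 and 7.48 in 1013/1013 OPCs. It was 3.502, 5.72 and 1.86 RPKM in WT SSCs, 2.08, 1.10 and 1.67 in +/1013 SSCs, and 0 and 1.33 in 1013/1013 SSCs. The cell types overlapped through WT OPC replicate 3. The log2 difference was -2.95 (SE 0.71, edgeR adjusted p = 0.00582), and it ran from -6.73 without 1013/1013 SSC replicate 2 to -2.61. Itgb4, the long-tailed β chain that pairs with α6 in hemidesmosomes and Schwann cells, was at 0.710 to 8.02 RPKM (median 2.49) in OPCs and 0.273 to 1.22 (median 0.692) in SSCs, a log2 difference of -2.16 (SE 0.49, edgeR adjusted p = 0.00379). Markers of Schwann cells moved with both genes. Their 6 genes summed to 135 to 603 CPM in OPCs and 30.2 to 67.4 CPM in SSCs, all 6 were lower in SSCs, and Sox10 was at 0 in 5 of the 8 SSC libraries. Muscle markers summed to 39.96 to 356 CPM in OPCs and 4.81 to 165 CPM in SSCs, with all 8 lower in SSCs, 3 of them called. The part of either in the Itga7 and Itgb4 differences was not tested. Itga6 went the other way, at 1.31 to 3.68 RPKM (median 1.77) in OPCs and 1.80 to 7.26 (median 3.79) in SSCs. Its log2 difference was 0.95 (SE 0.22, edgeR adjusted p = 0.00385), with overlap. Itga3 was at 0.735 to 2.18 RPKM in OPCs and 0 to 4.20 in SSCs and was not called.

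Itga9, whose product pairs with β1 and binds tenascin-C, osteopontin and the extra domain of fibronectin, separated the 2 cell types completely. Its gene lies at chr9:118606690-118901003 (GRCm38, plus strand). It was at 0.752, 0.764 and 0.601 RPKM in WT OPCs, 0.901, 0.192 and 0.748 in +/1013 OPCs and 0.564, 0.682 and 0.344 in 1013/1013 OPCs. In SSCs it was at 5.64, 3.74 and 3.96 RPKM in WT, 3.68, 1.54 and 3.47 in +/1013, and 5.96 and 3.16 in 1013/1013. The lowest SSC library lay above the highest OPC library. The log2 difference was 2.66 (SE 0.31, edgeR adjusted p = 2.07e-05), and it was called within each genotype (2.65, SE 0.52, in WT; 2.24, SE 0.51, in +/1013; 3.10, SE 0.56, in 1013/1013). Its relative Itga4 had at most 0.932 RPKM, in WT SSC replicate 3, and was not called.

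The β chains were dominated by Itgb1 and Itgb5. Itgb1, the common partner of the collagen, fibronectin and laminin receptors, lay at 132 to 174 RPKM (median 141) in OPCs and 112 to 188 (median 131) in SSCs, and did not differ by the test (log2 difference -0.07, SE 0.11, edgeR adjusted p = 0.6997). Itgb5, which pairs with αv to bind vitronectin, lay at 56.4 to 106 RPKM (median 71.1) in OPCs and 96.1 to 212 (median 137) in SSCs. Its log2 difference was 0.86 (SE 0.17, edgeR adjusted p = 0.00141), with overlap through WT and +/1013 OPC replicates 1. Itgb3, the other main αv partner, lay at 2.02 to 4.49 and 1.73 to 8.53 RPKM and was not called. Itgb8 and Itgb6, whose dimers with αv release active TGF-β, were at 0.132 to 0.621 and 0 to 0.389 RPKM over all libraries and not called. As a share of the summed RPKM of the 8 β chains, Itgb1 had a median of 63.4% in OPCs and 48.0% in SSCs, and Itgb5 of 30.97% and 46.7%.

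At the median, the laminin chains were led by α4, β2 and γ1. Lama4, the α chain of vascular and mesenchymal laminins, at chr10:38965515-39110188 (GRCm38, plus strand), lay at 2.59, 2.47 and 2.37 RPKM in WT OPCs, 3.22, 3.15 and 2.06 in +/1013 OPCs and 1.62, 3.57 and 1.98 in 1013/1013 OPCs. In SSCs it was at 10.5, 10.2 and 8.28 RPKM in WT, 15.01, 6.23 and 12.4 in +/1013, and 15.4 and 8.92 in 1013/1013. The cell types did not overlap, and the log2 difference of 2.10 (SE 0.21, edgeR adjusted p = 6.11e-06) was called within each genotype. Lama2, the α chain of muscle and Schwann cell laminins, was second at the median, at 0.368 to 5.88 RPKM (median 1.51) in OPCs and 2.83 to 12.4 (median 4.44) in SSCs. In OPC replicate 1 of each genotype Lama2 lay above Lama4, at 5.88 RPKM in WT, 4.29 in +/1013 and 2.42 in 1013/1013. The Lama2 log2 difference was 1.30 (SE 0.47, edgeR adjusted p = 0.0440), a call that was lost in 12 of the alternatives. It fell to 0.84 without 1013/1013 SSC replicate 1, which held the 12.4 RPKM. The 5 laminin α chains together summed to 2.74 to 9.75 RPKM in OPCs and 10.7 to 28.9 in SSCs, without overlap. Endothelial markers summed to 2.72 to 89.0 CPM in OPCs and 30.1 to 204 CPM in SSCs, with 9 of 10 higher in SSCs, 2 of them called (median log2 difference 1.66). Pecam1, which encodes CD31, the antigen used to exclude endothelial cells in the sort, ranged from 0 to 13.3 CPM (median 0.1998) in OPCs and from 0.843 to 41.3 CPM (median 2.51) in SSCs. Cdh5, a defining endothelial gene, ranged from 0 to 2.84 and from 0 to 4.01 CPM and was at 0 in 2 libraries of each cell type. The part of these cells in the laminin differences was not tested. Lama5 reached 1.14 RPKM and was not called, and Lama1 reached 0.0449 RPKM.

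Among the laminin β chains, Lamb2 made up a median of 94.8% of summed RPKM in OPCs and 91.3% in SSCs. It lay at 40.4 to 89.9 and 41.8 to 146 RPKM, and its log2 difference of 0.58 (SE 0.21, edgeR adjusted p = 0.0497) was just under the fold threshold. Lamb1 was at 0.937 to 4.99 RPKM (median 2.46) in OPCs and 3.71 to 11.6 (median 7.15) in SSCs, a log2 difference of 1.52 (SE 0.25, edgeR adjusted p = 0.00037). Lamc1, the γ chain of most laminins, was at 4.19 to 24.7 RPKM in OPCs and 6.89 to 30.6 in SSCs and was not called (0.63, SE 0.36). Lamb3 and Lama3 stayed under 1 RPKM in every library and were not called. Lamc3 was at 1.08 to 6.08 RPKM (median 2.67) in OPCs and 0.0120 to 2.20 (median 1.04) in SSCs, a log2 difference of -1.69 (SE 0.59, edgeR adjusted p = 0.0387). Its share of γ chains had a median of 19.3% in OPCs and 4.94% in SSCs. Without 1013/1013 SSC replicate 2 the Lamc3 difference was -3.45, since replicate 1 had 4 counts. The Lamc3 call was lost in 11 of the alternatives.

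**Figure D3:**
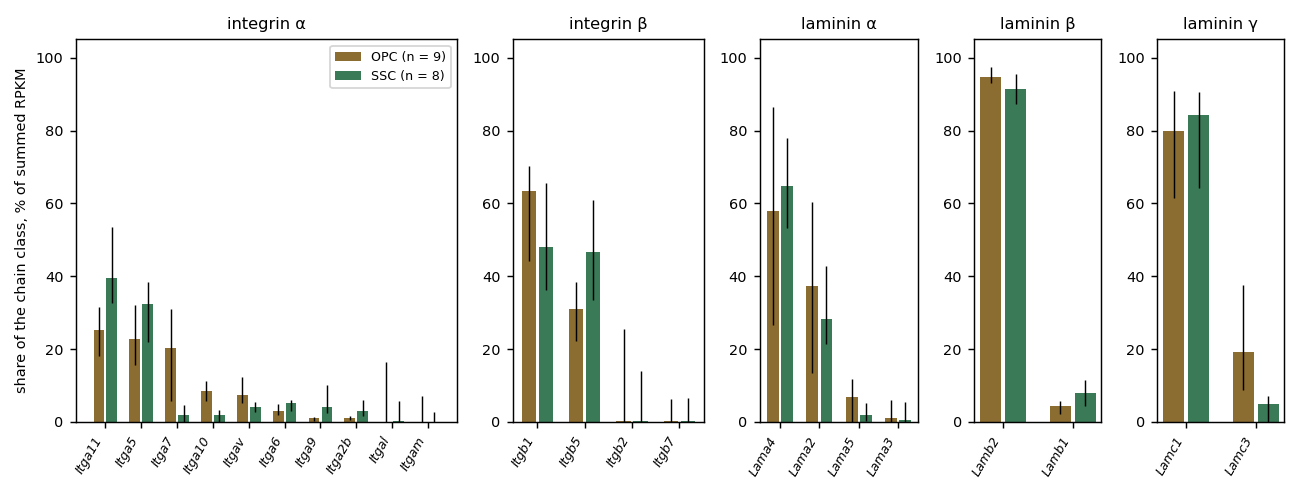
Share of each chain in the summed RPKM of its class (percent, linear axis from 0), as the median over 9 OPC and 8 SSC libraries (bars) with the lowest and highest library (lines), for chains described in the text that pass 5% in any library. Itga7 has a median of 20.3% of α chains in OPCs and 1.85% in SSCs, and Itga11 has 25.2% and 39.6%.

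By shares of the summed RPKM of the 18 integrin α chains, Itga11 (25.2%), Itga5 (22.9%) and Itga7 (20.3%) led in OPCs at the median. In SSCs Itga11 (39.6%) and Itga5 (32.4%) led, and Itga7 had 1.85%. Without division by exon length, the median shares in OPCs were 25.6% for Itga7, 20.7% for Itga11 and 17.7% for Itga5. The order of these chains in OPCs thus depended on that division. In SSCs Itga11 (34.1%) and Itga5 (26.7%) led on this scale too.

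Of the leukocyte integrin genes, Itgb2, Itgal, Itgam and Itgb7 were highest in the same 3 libraries. Itgb2, the β chain of the leukocyte integrins, was at 69.7 RPKM in WT OPC replicate 3, 82.2 in 1013/1013 OPC replicate 2 and 42.0 in WT SSC replicate 3, and at most 3.13 in the other 14 libraries. Itgal, the α chain of LFA-1, was at 8.36, 7.74 and 6.34 RPKM in the same 3 libraries and at most 0.606 elsewhere. Itgam, which encodes CD11b, was at 3.10, 5.43 and 3.07 RPKM and at most 0.311 elsewhere, and it shares 3450 exon bases with the same-strand gene model Gm49368. Itgb7 was at 6.11, 19.9 and 19.9 RPKM and at most 1.49 elsewhere. The 15 leukocyte markers summed to 7657, 8522 and 5035 CPM in these 3 libraries and to 43.7 to 1130 CPM in the other 14, and no more than 2 of the 15 were at 0 in any library. Itgax, which encodes CD11c, and Itgad reached at most 0.184 and 0.0202 RPKM in the other 14. Both had no count in WT OPC replicate 3. Itgae was highest outside the 3 libraries, at 0.167 RPKM. Ptprc, which encodes CD45, the antigen used to exclude leukocytes in the sort, was at 38.8, 102 and 170 CPM in the 3. None of the 5 leukocyte α chains was called between the cell types. Without the 3 libraries, 14 of the 35 members that could then be tested were called between SSCs and OPCs, where 29% of all genes were called.

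**Figure D4:**
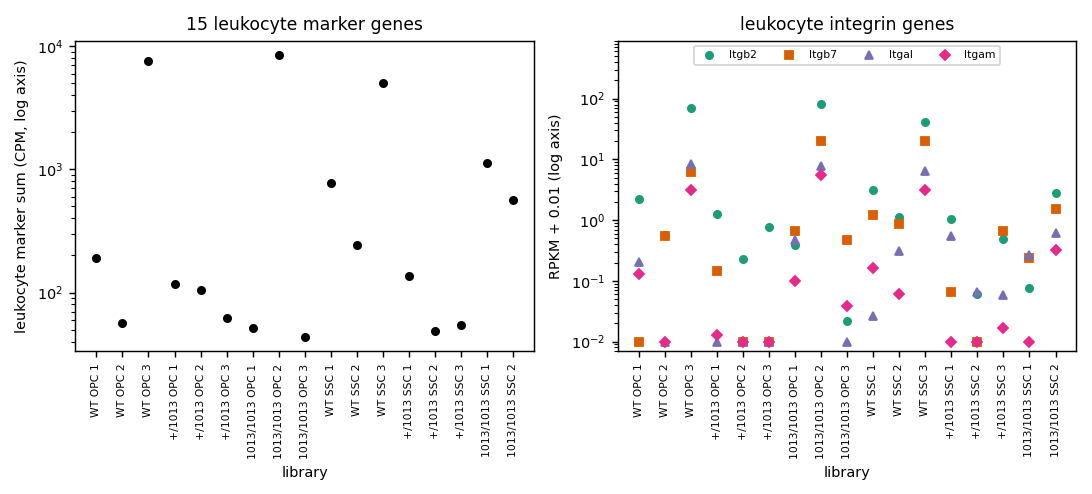
Left, summed CPM of 15 leukocyte marker genes (log axis) in each library. Right, RPKM + 0.01 (log axis) of Itgb2, Itgb7, Itgal and Itgam in each library. The same 3 libraries (WT OPC replicate 3, 1013/1013 OPC replicate 2 and WT SSC replicate 3) stand highest in both.

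Genes that work with the members were read from 3 lists. In the same test, 15.3% of all genes were called higher and 14.9% lower in SSCs. Of 28 genes of the adhesion machinery that links integrins to actin, 5 were called higher and 7 called lower in SSCs (median log2 difference -0.04). Ilk, the integrin-linked kinase, had the largest difference among the called genes of this list (-2.48, SE 0.51, edgeR adjusted p = 0.00213). It reached at most 0.473 RPKM, and 89.7% of its exon bases are shared with Taf10 or Rrp8, so reads could not be assigned to it alone. Tns1, a tensin, lay at 0.940 to 2.84 RPKM in OPCs and 5.34 to 10.3 in SSCs (1.98, SE 0.23, edgeR adjusted p = 2.56e-05). Kank2, a regulator of talin, lay at 0.864 to 8.78 and 5.01 to 15.03 RPKM (1.76, SE 0.34, edgeR adjusted p = 0.00117). Of 16 basement membrane partners, 5 were called higher and 3 called lower (median 0.56). The 2 nidogens, which link laminin to type IV collagen, moved in opposite directions without overlap. Nid1 lay at 2.17 to 16.3 RPKM in OPCs and 29.9 to 89.6 in SSCs (2.44, SE 0.35), and Nid2 at 15.4 to 122 and 2.72 to 13.5 (-2.92, SE 0.41). Dag1, the laminin receptor dystroglycan, lay at 46.2 to 236 RPKM in OPCs and 14.5 to 45.8 in SSCs (-2.47, SE 0.31).

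Of 24 integrin ligands, 23 were tested, 5 were called higher and 12 called lower in SSCs (median -1.11). Among all genes, 15.3% were called higher and 14.9% lower. Icam1, the ligand of the Itgb2 integrins, lay at 2.58 to 7.47 RPKM in OPCs and 28.7 to 170 in SSCs (4.09, SE 0.35, edgeR adjusted p = 1.41e-06). Fbn1, fibrillin-1, lay at 0.659 to 8.79 and 17.3 to 45.6 RPKM (2.63, SE 0.41). Cdh1, E-cadherin, had no count in any of the 8 SSC libraries, nor in 4 of the 9 OPC libraries, and at most 410 counts. Its mean OPC level of 0.392 RPKM was at least 34.9-fold higher than the level of 3 counts per SSC library. The bone matrix ligands Spp1 (osteopontin, -2.15, SE 0.31) and Ibsp (bone sialoprotein, -2.58, SE 0.41) were among the 12 lower, and Fn1 (fibronectin, 1.05, SE 0.24) among the 5 higher. These last 3 were chosen after their values were seen.

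The second question was whether the 1013 allele changed the members within a cell type. No member was called in any of the 6 genotype comparisons by edgeR, in fits of the 9 OPC or the 8 SSC libraries. Over all genes tested, 0% were called for +/1013 against WT in OPCs, 0.00617% for 1013/1013 against WT and 0% between the mutants. In SSCs the shares were 0.0736%, 0% and 0%. In OPCs, where 33 members could be tested, 4 members had an unadjusted p under 0.05 for +/1013 against WT, 2 for 1013/1013 against WT and 4 between the mutants. Over all genes those shares were 2.04%, 3.38% and 3.17%. In SSCs, where 34 could be tested, 9 members (1 higher, 8 lower) had such a p for +/1013 against WT, 5 (1 higher, 4 lower) for 1013/1013 against WT and 1 between the mutants, where all genes gave 17.3%, 18.3% and 5.53%. By direction, 7.65% of all genes were higher and 9.68% lower in +/1013, and 8.37% and 9.89% in 1013/1013. DESeq2's Wald test called 2, 0 and 1 members in OPCs, where it called 0.358%, 0.259% and 0.364% of all genes. In SSCs it called 6, 1 and 1 members, where it called 7.37%, 9.67% and 0.957% of all genes. Without 1013/1013 SSC replicate 2, which leaves replicate 1 alone in its group, edgeR called 8 members for 1013/1013 against WT, 7 between the mutants and 7 for the difference of the 1013/1013 effect between cell types, where 14.8%, 9.17% and 8.73% of all genes were called. Both mutant groups were compared with the same WT libraries.

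Itga1, a collagen IV and collagen I receptor chain, had the smallest p in OPCs. It was at 0.565, 0.360 and 0.551 RPKM in WT OPCs, 2.01, 1.64 and 0.933 in +/1013 OPCs and 0.763, 1.01 and 0.914 in 1013/1013 OPCs. Neither mutant group overlapped with WT, as held for 5.30% of all genes for +/1013 and 7.61% for 1013/1013. The log2 differences were 1.63 (SE 0.33, edgeR adjusted p = 1) and 0.86 (SE 0.32, edgeR adjusted p = 0.9997), and DESeq2 gave the first an adjusted p of 0.00345. In SSCs the same gene was at 1.18, 1.33 and 0.727 RPKM in WT, 1.14, 1.38 and 1.07 in +/1013 and 0.263 and 1.11 in 1013/1013, with all groups overlapping. Lamb1 was at 3.00, 1.34 and 0.937 RPKM in WT OPCs and 4.99, 3.59 and 3.16 in +/1013 OPCs, without overlap (1.15, SE 0.40, edgeR adjusted p = 1). In 1013/1013 OPCs it was at 2.35, 2.46 and 2.21 RPKM, inside the WT range.

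In SSCs, Itga5, Itgav and Itga6 were lower in both mutant groups than in WT, without overlap and without passing the adjusted threshold. The Itga5 differences were -0.96 (SE 0.29, edgeR adjusted p = 0.184) in +/1013 and -0.79 (SE 0.33, edgeR adjusted p = 0.266) in 1013/1013, from the values given above. Itgav was at 5.02, 4.61 and 5.55 RPKM in WT SSCs, 1.66, 3.33 and 2.90 in +/1013 and 2.88 and 2.47 in 1013/1013. Its differences were -0.97 (SE 0.27) and -0.91 (SE 0.31). Itga6 was at 4.67, 7.26 and 5.74 RPKM in WT SSCs, 3.22, 3.22 and 3.28 in +/1013 and 1.80 and 4.30 in 1013/1013, with differences of -0.88 (SE 0.32) and -0.95 (SE 0.36). In 1013/1013 the Itga5 difference was -0.41 without replicate 1 and -1.37 without replicate 2, and that of Itga6 was -0.47 and -1.74. In the same libraries, osteoblast markers summed to 11572 to 16621 CPM in WT SSCs and to 2271 to 4786 CPM in mutant SSCs, without overlap. By direction, 7 of 7 osteoblast markers, 6 of 7 chondrocyte markers (median log2 difference -3.37) and all 14 leukocyte markers tested were lower in +/1013 than in WT. In 1013/1013 the counts were 6 of 7, 6 of 7 (median -2.34) and 12 of 14, and none of these markers was called in either comparison. Their part in the member differences was not tested. Most members lay on the same side: of 34 tested in SSCs, 27 were lower and 7 higher than WT in each mutant group. The median log2 difference of these members was -0.75 in +/1013 and -0.80 in 1013/1013. The median over all genes was itself shifted, by -0.11 in +/1013 and -0.23 in 1013/1013 SSCs, and 31.3% and 41.1% of all genes did not overlap with WT. Itga8 was at 1.72, 1.89 and 0.509 RPKM in WT SSCs and 0.0945 and 0.285 in 1013/1013, a difference of -2.85 (SE 0.85, edgeR adjusted p = 0.1715).

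Lama5, the α chain of most adult basement membranes, was at 0.446, 0.926 and 0.504 RPKM in WT SSCs, 0.0842, 0.0353 and 0.0491 in +/1013 and 1.11 and 0.144 in 1013/1013. The difference from WT was -3.49 (SE 0.87, edgeR adjusted p = 0.151) in +/1013, and that between the mutants was 3.53 (SE 0.91, edgeR adjusted p = 0.788). The latter was 1.35 without 1013/1013 SSC replicate 1, which held the 1.11 RPKM, and 4.31 (edgeR adjusted p = 0.00918) without replicate 2. DESeq2 gave the difference of +/1013 from WT an adjusted p of 0.000767. The leukocyte chains Itgb2, Itgb7 and Itgam also had an unadjusted p under 0.05 and no overlap for +/1013 against WT SSCs, with WT SSC replicate 3 far above the rest, and Itgam and Itgb7 between the mutant OPC groups, with 1013/1013 OPC replicate 2 far above the rest. Without the 3 leukocyte-rich libraries the Itgb2 difference in SSCs was -2.04 (edgeR adjusted p = 0.713) in place of -4.93.

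**Figure D5:**
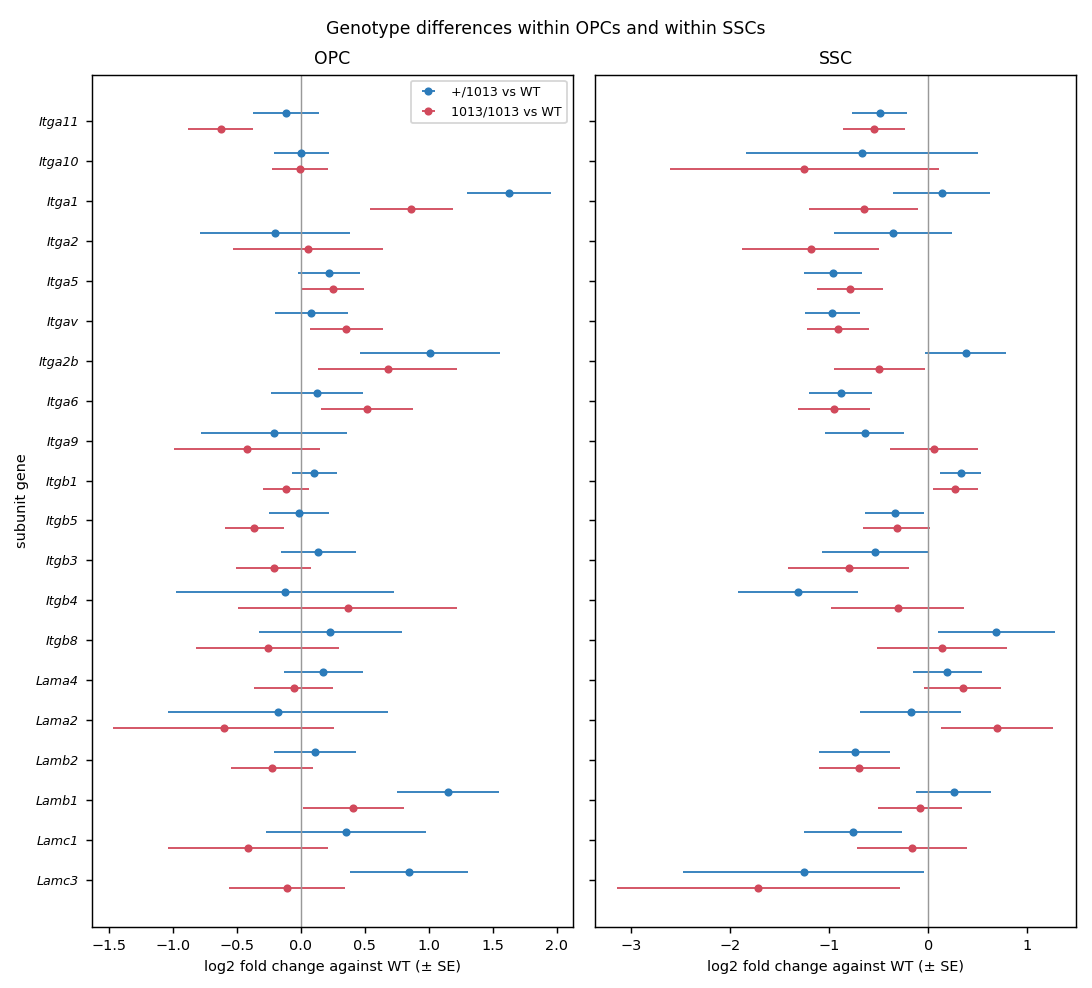
Log2 fold change against WT (points, ± SE) within OPCs (left) and SSCs (right) for the 20 members with at least 3 counts in every library, +/1013 in blue and 1013/1013 in red. In OPCs, Itga1 in +/1013 lies farthest from 0 (1.63). In SSCs, Itga5, Itgav and Itga6 are among the members that lie below 0 in both genotypes. None of the differences shown passed the adjusted threshold.

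The last comparison asked whether the effect of the allele differed between the cell types. No member was called for the difference of the +/1013 effect (0.0840% of all genes were called) or of the 1013/1013 effect (0.153%). DESeq2 called 1 and 3 members, and 2.16% and 5.64% of all genes. At an unadjusted p under 0.05, 4 and 6 of 37 members were lower in SSCs than OPCs on this measure and none higher, where all genes gave 10.6% and 15% in either direction and 6.04% and 9.11% in the lower one. The median of the members was -0.84 and -1.23, against -0.14 and -0.39 over all genes. For Itgav the difference of effects was -1.03 (SE 0.41, edgeR adjusted p = 0.426) for +/1013 and -1.28 (SE 0.44, edgeR adjusted p = 0.228) for 1013/1013, and for Itga1 it was -1.48 (SE 0.62) and -1.52 (SE 0.66).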

How the data were processed

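RNA from 17 pools of sorted cells, 3 mice a pool, was made into SMART-Seq v4 and Nextera XT libraries, which do not mark the strand. The authors aligned reads with STAR to mm10 and obtained gene counts with HTSeq. The authors deposited raw read counts for each library. Software versions, the annotation release and the HTSeq settings are not given in the sources used here, so reads of overlapping genes cannot be assigned further. The 5 special counters of each file were left out of library sizes. They include reads outside genes.

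Counts were tested with edgeR 4.0.16 (quasi-likelihood F test, filterByExpr, TMM normalisation, R 4.3.3). P-values were Benjamini-Hochberg adjusted over all genes tested, and called means an adjusted p under 0.05 with at least a 1.5-fold change. Cell types, and the difference of genotype effects between them, were compared in a fit of all 17 libraries, and genotypes in a fit of each cell type. RPKM were computed from counts, TMM library sizes and GENCODE M21 exon lengths, which matched 55154 of 55335 identifiers. The tests were tried on simulated data before use. Alternatives were DESeq2 1.42.0, other filters and normalisations, thinning of the libraries to the smallest, a replicate block and leaving out each library. P-values measure the spread between pools. Whether replicate numbers pair libraries was checked by the correlation of deviations from group means. Of 10 pairs of groups that share 3 numbers, every correlation was over 0.1 in 3: WT OPCs and WT SSCs (0.127 to 0.413), WT and +/1013 OPCs (0.101 to 0.417), and +/1013 and 1013/1013 OPCs (0.137 to 0.24). For WT and 1013/1013 OPCs the correlations ran from -0.395 to 0.428, so they do not settle whether the numbers pair libraries. The labels name no shared origin. WT OPC and WT SSC replicates 3 are both rich in leukocyte markers.

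Members, gene lists and tests were chosen with earlier results of these data known. The results of 1 member and of 1 Schwann cell marker are not reported here, though counts include them. Values by library are given, in the text or only in the figures, for members called between the cell types. The same holds for members with an unadjusted p under 0.05 and no overlap in a genotype comparison, and for leading members of a role. Of each list of partner genes the 3 called genes of largest change are named.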

Additional observations from a re-analysis of the deposited data

How the results depend on the processing

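No member value reversed. The values followed were the calls between cell types, the larger chain shares, and genotype differences with an unadjusted p under 0.05 and no overlap. Groups without overlap can hardly reverse when 1 library is left out. For the genotype differences, none of them called, the same side of the threshold means only that they stayed uncalled. Of 793 member values under an alternative, 725 kept their direction and side of the threshold, or moved by less than the spread between libraries, 50 lost the threshold, 12 passed it and 6, all shares of chain classes without division by exon length, moved further. Between SSCs and OPCs averaged over genotypes, 12 to 19 members were called under all alternatives (12 to 17 when 1 library was left out), and 12 of the 16 kept their call in every alternative that tested them. The others were Itga2 (log2 difference 0.49, adjusted p = 0.28 without 1013/1013 SSC replicate 2), Itgav (adjusted p up to 0.0594), Lama2 (adjusted p up to 0.221) and Lamc3 (adjusted p up to 0.126).

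DESeq2's Wald test called 10 members between the cell types in +/1013 and 13 in 1013/1013. It called 2 in +/1013 against WT OPCs, 1 between the mutant OPCs, 6 in +/1013 against WT SSCs, 1 in 1013/1013 against WT SSCs, 1 between the mutant SSCs, and 1 and 3 for the difference of the +/1013 and 1013/1013 effects between cell types. The newer edgeR dispersion method called 7 in +/1013. A fit of the 2 groups alone called 10 in +/1013 and 1 in 1013/1013. Without the 3 leukocyte-rich libraries, an alternative chosen after seeing the data, 4 were called in WT. When 1 library was left out, the SSC against OPC counts ran from 6 to 10 in WT, 2 to 7 in +/1013 and 2 to 11 in 1013/1013. The counts ran from 0 to 8 for 1013/1013 against WT SSCs, 0 to 7 between the mutant SSCs and 0 to 7 for the difference of the 1013/1013 effect. The 8, 7, 7 and 11 came without 1013/1013 SSC replicate 2, where the lone replicate 1 is assumed to vary like the other groups. The 2 in 1013/1013 came without OPC or SSC replicate 1 of that genotype, and the 2 in +/1013 without OPC replicate 2 or 3 or SSC replicate 1 or 3. The share of all genes called also changed with the method, as given above for DESeq2. It is not set beside the other counts of this section, so their shifts are not results about the members. The cause of these shifts was not tested.

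With a replicate block, 14 members were called between the cell types, 7 in WT, 4 in +/1013, 5 in 1013/1013 and 0 between genotypes. In the 3 pairs of groups where every correlation was over 0.1, the block moved the count in WT from 8 to 7. The block left the counts between +/1013 and either other OPC group at 0. These correlations do not settle whether the numbers pair the samples. Averaged over genotypes, where not all pairs of groups passed that limit, Itga2 (edgeR adjusted p = 0.0649) and Lamc3 (edgeR adjusted p = 0.0591) lost their calls. Pools of few cells, 2 libraries in 1013/1013 SSCs and WT SSC libraries that stand apart limit the genotype comparisons, and members with a count of 0 in some library have wide errors.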
